A study of Mus musculus with 9 samples.

Results

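The transcription factor p53, its direct targets and the GADD45 stress genes were followed as 10 genes of the 16509 in the deposited table: Trp53, Mdm2, Cdkn1a, Ccng1, Btg2, Plk2, Trp53inp1, Gadd45a, Gadd45b and Gadd45g. They were taken from the table by gene symbol, and all 10 passed the filter on low counts, as did 11949 genes in all. RNA was sequenced from MC38 cells, an established mouse colon carcinoma line, in 9 libraries. Of these, 3 came from control cells (Ctrl), which the sample labels describe as given DMSO and the study's methods as given PBS, 3 from cells given copper and cystine (Cu-Cys), and 3 from cells given Cadict, a nanodrug of copper and cystine that also carries glucose oxidase and the EGFR-binding peptide GE11. Neither labels nor methods give a dose or an exposure time for these libraries, so Cadict and Cu-Cys differ in composition and possibly in dose. All 9 libraries share 1 cell line, whose Trp53 genotype was not examined here, and transcript levels alone do not measure p53 protein or its activity.

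In unstressed cells the p53 protein is kept scarce by Mdm2, the ubiquitin ligase that marks it for destruction. DNA damage and other stresses stabilise p53, which then binds DNA and raises transcription of genes that halt the cell cycle, repair DNA or start apoptosis, and of Mdm2 itself, which closes a feedback loop. Cdkn1a encodes p21, the inhibitor of cyclin-dependent kinases through which p53 stops division. The GADD45 proteins are small stress sensors that bind the kinase Map3k4, Pcna and the Cdk1-cyclin B1 complex. Gadd45a is a classical p53 target, but all members of the family can also be induced without p53 by other stress pathways.

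The p53 protein binds a pair of similar short units, each called a p53 half-site. To show where such units lie near these genes, the RefSeq promoters of build GRCm38.p6, each reaching from 250 bases before the start site to 50 after it, were searched on both strands. There were 10 such windows for 9 of the 10 genes, 2 of them for Cdkn1a. Only exact matches were counted. Sequence outside these windows was not searched, so half-sites elsewhere in these genes are not listed. A p53 half-site was matched in 5 of the 10 windows, against 8.36% of all 32851 promoters. The 5 stretches are printed because they set side by side genes that moved in opposite directions. Each is 60 bases long on the gene's own strand, with the half-site in capitals:
Trp53, chr11:69580259-69580318, plus strand: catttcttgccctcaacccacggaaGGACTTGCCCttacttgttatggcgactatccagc
Mdm2, chr10:117710909-117710968, minus strand: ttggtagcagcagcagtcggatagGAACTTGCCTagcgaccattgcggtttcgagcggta
Cdkn1a, upstream start, chr17:29090887-29090946, plus strand: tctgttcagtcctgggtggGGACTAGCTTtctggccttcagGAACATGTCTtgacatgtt
Ccng1, chr11:40755437-40755496, minus strand: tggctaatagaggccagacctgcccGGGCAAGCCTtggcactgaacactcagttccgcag
Gadd45a, chr6:67037413-67037472, minus strand: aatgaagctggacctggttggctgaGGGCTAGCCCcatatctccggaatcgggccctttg
The Cdkn1a window with the matches belongs to the more distal of its start sites, 2790 bases from the proximal one, and it held 2 half-sites.

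The 3 GADD45 promoters differed from one another in these motifs. The last 110 bases before each start site are printed with the CCAAT box (CCAAT), the TATA box (TATAAA) and the C/EBP-ATF response element (TGATGNAA, either strand) in capitals:
Gadd45a, chr6:67037408-67037517, minus strand: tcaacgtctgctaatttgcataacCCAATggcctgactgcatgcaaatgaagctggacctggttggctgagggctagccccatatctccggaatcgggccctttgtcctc
Gadd45b, chr10:80929981-80930090, plus strand: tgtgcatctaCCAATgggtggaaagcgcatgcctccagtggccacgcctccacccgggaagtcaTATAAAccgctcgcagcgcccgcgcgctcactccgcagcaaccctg
Gadd45g, chr13:51846565-51846674, plus strand: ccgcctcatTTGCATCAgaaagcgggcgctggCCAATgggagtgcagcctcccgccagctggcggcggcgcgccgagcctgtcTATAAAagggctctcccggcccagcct
All 3 stretches held a CCAAT box, which 37.4% of all promoters have. The shares of promoters given here refer to the whole windows searched, which are longer than these 110 bases. The TATA box was found in those of Gadd45b and Gadd45g and in 13.6% of promoters, and the C/EBP-ATF element, on the minus strand of Gadd45g, in 3.97%. The cyclic AMP response element (TGACGTCA) was matched in the windows of Btg2 and Plk2, against 1.79% of promoters. An AP-1 site (TGANTCA) and a heat shock element pair (GAANNTTC) were matched in 0 of the 10 windows, against 7.81% and 7.86% of promoters, and so was the CArG box, against 1.63%. The GC box (GGGCGG) was matched in 6 windows, against 35.7%. None of the matches printed in capitals overlapped another. Such matches describe letters in these windows and are no evidence of binding.

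The libraries held 17905771 to 18293056 counts, so depth was nearly even. The 100 most abundant genes took 29.79% to 31.13% of counts with Cadict, 17.19% to 17.39% in Ctrl and 17.9% to 18.16% with Cu-Cys. Scaling by TMM, which equalises the bulk of genes rather than the totals, therefore gave factors of 0.6395 to 0.6654 for Cadict libraries and 1.262 to 1.274 for Ctrl libraries. Levels in CPM, counts scaled to a common library size, are used for 1 gene across groups and are TMM-scaled. Cadict replicate 2 differed from the other Cadict libraries more than they did from each other (chi-square per degree of freedom 14.2 and 22.43, against 3.554). Of the markers of colon epithelium 3 of 5 were in the table, with summed levels of 0.13 to 1.47 TPM over all libraries, and of the general epithelial markers 3 of 5 lay below 1 TPM in every group. The general epithelial markers summed to 4.19 to 6.21 TPM in Ctrl, 3.47 to 3.95 TPM with Cu-Cys and 11.43 to 13.1 TPM with Cadict. Most of the rise with Cadict lay in Krt19, with mean TPM of 2.25, 2.01 and 8.96 in Ctrl, Cu-Cys and Cadict. In the same order Cdh1 had 2.52, 1.47 and 2.70 TPM. The mesenchymal markers summed to 3006 to 3119 TPM in Ctrl, 2737 to 2880 TPM with Cu-Cys and 1244 to 1368 TPM with Cadict. Vim, which made up most of that sum, had means of 2056, 2103 and 2060 TMM-scaled CPM in Ctrl, Cu-Cys and Cadict. In the same order Fn1 had 417, 418 and 1029 CPM, and Cdh2 48.1, 55.4 and 64.7 CPM. The fall from Ctrl to Cadict seen in TPM was thus not seen in TMM-scaled CPM. Leukocyte and endothelial markers summed to at most 1.37 TPM. Fibroblast markers summed to 246.8 to 268.5 TPM in Ctrl, 124.4 to 132 TPM with Cu-Cys and 20.16 to 25.69 TPM with Cadict. Col1a2 made up most of that sum, and its means of 568, 315 and 124 TMM-scaled CPM in Ctrl, Cu-Cys and Cadict fell as well. In the same order Col1a1 had 19.0, 6.96 and 6.73 CPM. Dcn, close to the limit of detection, had 0.61, 0.57 and 1.08 CPM. The part of these marker differences in the results was not tested.

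With Cadict, 7 of the 10 genes were called higher than in Ctrl and 1, Ccng1, was called lower. A call here needs both a fold change of 2 or more and an edgeR adjusted p no larger than 0.001, the study's threshold. Of all 11949 genes tested, 20.7% were called higher and 27.1% lower. On the log2 scale the 10 genes had a median change of 2.24, and all genes tested one of -0.13. The counts of 7 and 1 were the same without Cadict replicate 2. In bulk RNA, fewer cells of a type and less RNA per cell cannot be told apart. The genes called higher were Gadd45g, Gadd45a, Cdkn1a, Gadd45b, Mdm2, Btg2 and Trp53, in order of size. Plk2 and Trp53inp1 were not called. Groups whose libraries do not overlap are described below for single genes, and the share of all genes that separate so is not given here. Differences were common, with 88.2% of all genes at an edgeR unadjusted p under 0.05 in Cadict against Ctrl. In Cu-Cys against Ctrl that share was 52.5%.

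**Figure D1:**
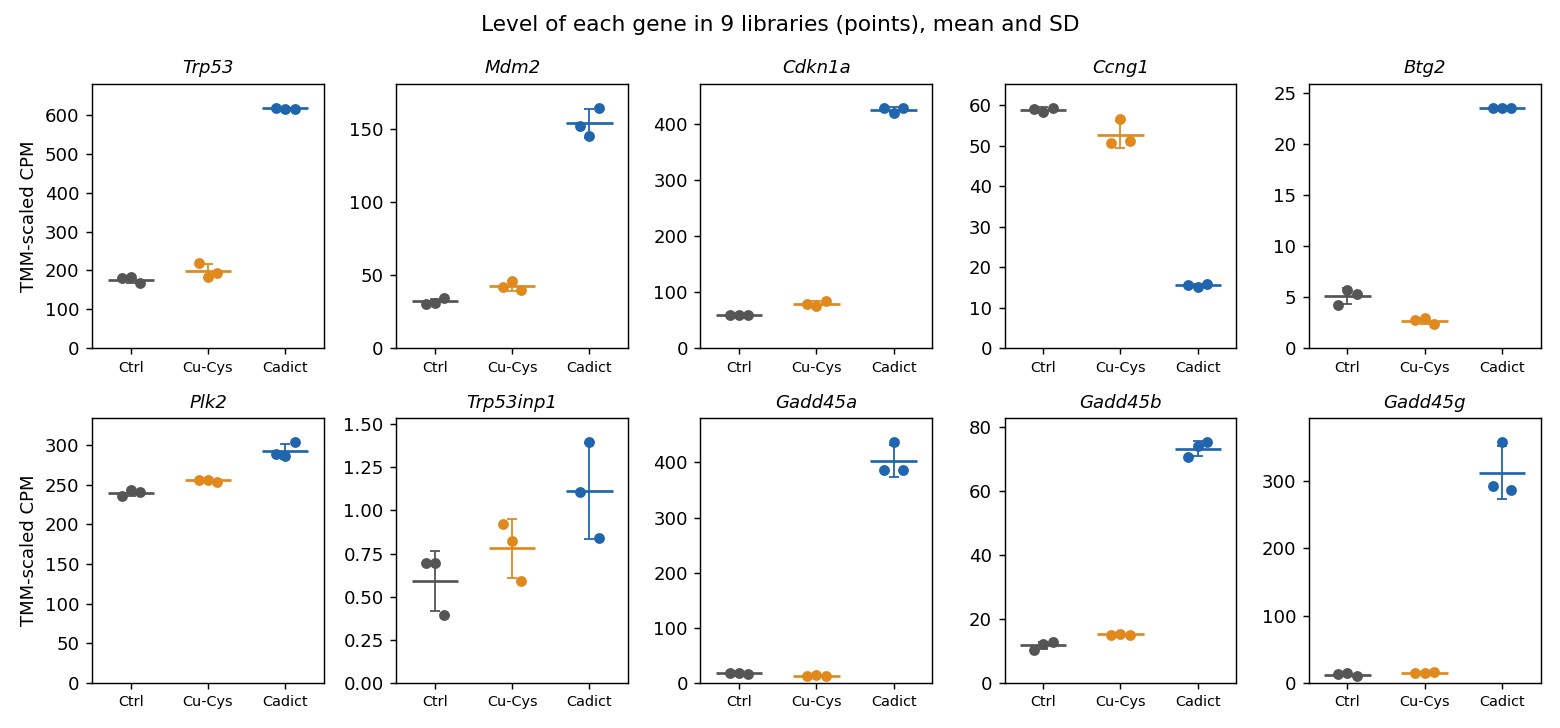
TMM-scaled CPM of each of the 10 genes (vertical axes, linear from 0) in the 3 Ctrl, 3 Cu-Cys and 3 Cadict libraries. Points are libraries, and bars give the mean and SD (n = 3). The Cadict libraries lie above all others for Trp53, Mdm2, Cdkn1a, Btg2, Plk2 and the 3 GADD45 genes, below all others for Ccng1, and overlap those of Cu-Cys for Trp53inp1. The share of all genes whose libraries separate in this way is not given.

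Trp53 encodes p53 itself. Its level was 180, 182 and 167 CPM in the Ctrl libraries, 220.1, 184 and 193 CPM with Cu-Cys, and 619, 617 and 617 CPM with Cadict. The Cadict libraries were almost identical and lay far above the other 6, while the lowest Cu-Cys library exceeded the highest Ctrl library by a narrow margin. The log2 fold change of Cadict against Ctrl was 1.81 ± 0.064 (SE), a 3.50-fold higher level (edgeR adjusted p = 3.9e-13). That placed Trp53 at percentile 91.3 of all genes tested. Of its 50-base stretches, 3.95% also occur in other genes' transcripts, mostly in the pseudogene Trp53-ps.

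Mdm2 counted 30.5, 31.2 and 34.3 CPM in Ctrl, 41.6, 46.1 and 39.7 CPM with Cu-Cys, and 152, 146 and 165 CPM with Cadict. The 3 groups did not overlap and stood in the order Ctrl, Cu-Cys, Cadict. Its log2 fold change with Cadict was 2.27 ± 0.071 (SE), or 4.82-fold (edgeR adjusted p = 9.3e-14). Since lengths differ, the ratio of Mdm2 to its substrate Trp53 was taken in TPM. This ratio was 0.0893 to 0.108 in Ctrl, 0.0992 to 0.132 with Cu-Cys and 0.126 to 0.143 with Cadict, so that the Cadict libraries lay above Ctrl and overlapped Cu-Cys.

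Cdkn1a, the gene of p21, had 58.8, 59.4 and 58.6 CPM in Ctrl, 78.2, 75.0 and 83.7 CPM with Cu-Cys, and 428, 420.3 and 429 CPM with Cadict. As for Mdm2, the groups were separate and in the same order. The log2 fold change with Cadict was 2.85 ± 0.053 (SE), or 7.23-fold (edgeR adjusted p = 3.7e-16). Of its 50-base stretches, 8.49% also occur in transcripts of other genes, and 273 bases of its exons overlap a gene on the opposite strand in the GENCODE M21 annotation of GRCm38. Whether the counting used strand is not given in the sources used here.

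Btg2 encodes an antiproliferative adaptor that recruits deadenylases to mRNA. It measured 4.196, 5.71 and 5.32 CPM in Ctrl, 2.77, 2.93 and 2.37 CPM with Cu-Cys, and 23.5 CPM in each Cadict library. All Cu-Cys libraries were below all Ctrl libraries, and all Cadict libraries were above both. The log2 fold change was 2.21 ± 0.10 (SE) for Cadict against Ctrl (edgeR adjusted p = 1.2e-11).

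Ccng1, the gene of cyclin G1, which directs a phosphatase to Mdm2, moved the other way. It had 58.95, 58.27 and 59.39 CPM in Ctrl, 50.6, 56.5 and 51.1 CPM with Cu-Cys, and 15.6, 15.1 and 15.9 CPM with Cadict. The groups stood apart in descending order. Its log2 fold change with Cadict was -1.92 ± 0.069 (SE), a 3.79-fold lower level (edgeR adjusted p = 4.6e-13). Its promoter stretch printed above contains a p53 half-site, as do those of Mdm2, Trp53 and Gadd45a, which were called higher.

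Plk2, a polo-like kinase of centriole duplication and the stress response, was among the most abundant of the 10, and its change depended on the scale. It had 236, 243 and 241 CPM in Ctrl, 256, 256 and 254 CPM with Cu-Cys, and 288, 286 and 303 CPM with Cadict. The groups did not overlap, but the log2 fold change with Cadict was 0.29 ± 0.045 (SE), which passed the p limit (edgeR adjusted p = 2.4e-05) and not the fold limit. With library totals in place of TMM the value was -0.67. On the log2(TPM + 1) scale it was -1.01 and Plk2 was called lower (limma adjusted p = 1.9e-08), as were 6475 of all 11949 genes. The median of all genes was -1.08 with library totals and -1.13 on log2(TPM + 1), so Plk2 lay above the median on both scales.

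Trp53inp1, a p53 cofactor and autophagy gene, was close to the limit of detection. The libraries held 9 to 20 counts, or 0.39 to 0.69 CPM in Ctrl, 0.59 to 0.92 CPM with Cu-Cys and 0.84 to 1.39 CPM with Cadict. The Cadict libraries were above Ctrl and overlapped Cu-Cys. The log2 fold change with Cadict was 0.90 ± 0.33 (SE; edgeR adjusted p = 0.020), short of both limits, and it was -0.05 with library totals.

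The GADD45 genes included the largest changes of the 10. Gadd45a had 17.3, 17.6 and 16.8 CPM in Ctrl, 11.6, 14.2 and 12.7 CPM with Cu-Cys, and 386, 436 and 387 CPM with Cadict. Cu-Cys libraries all lay below Ctrl, and Cadict libraries all lay more than an order of magnitude above. The log2 fold change of Cadict against Ctrl was 4.55 ± 0.074 (SE), or 23.4-fold (edgeR adjusted p = 1.2e-16). Of its 50-base stretches, 15.6% also occur in transcripts of E230016M11Rik, a gene on the opposite strand with 337 bases of exon overlap, so counts of the pair could be mixed if strand was not used.

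Gadd45g had 12.5, 14.1 and 10.5 CPM in Ctrl, 14.4, 15.1 and 15.8 CPM with Cu-Cys, and 294, 358 and 287 CPM with Cadict. Its lowest Cu-Cys library stood just above the highest Ctrl library. With Cadict the log2 fold change was 4.66 ± 0.10 (SE), or 25.3-fold (edgeR adjusted p = 2.1e-15). Cadict replicate 2 was the highest library for both Gadd45a and Gadd45g, and without it their log2 fold changes were 4.49 and 4.55. Both genes stood at percentile 99 of all genes tested.

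Gadd45b rose less. It had 10.3, 12.03 and 12.6 CPM in Ctrl, 15.0, 15.4 and 15.1 CPM with Cu-Cys, and 70.5, 73.9 and 75.1 CPM with Cadict. The groups were separate, with Cadict highest. Its log2 fold change was 2.65 ± 0.072 (SE), or 6.27-fold (edgeR adjusted p = 2.2e-14).

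**Figure D2:**
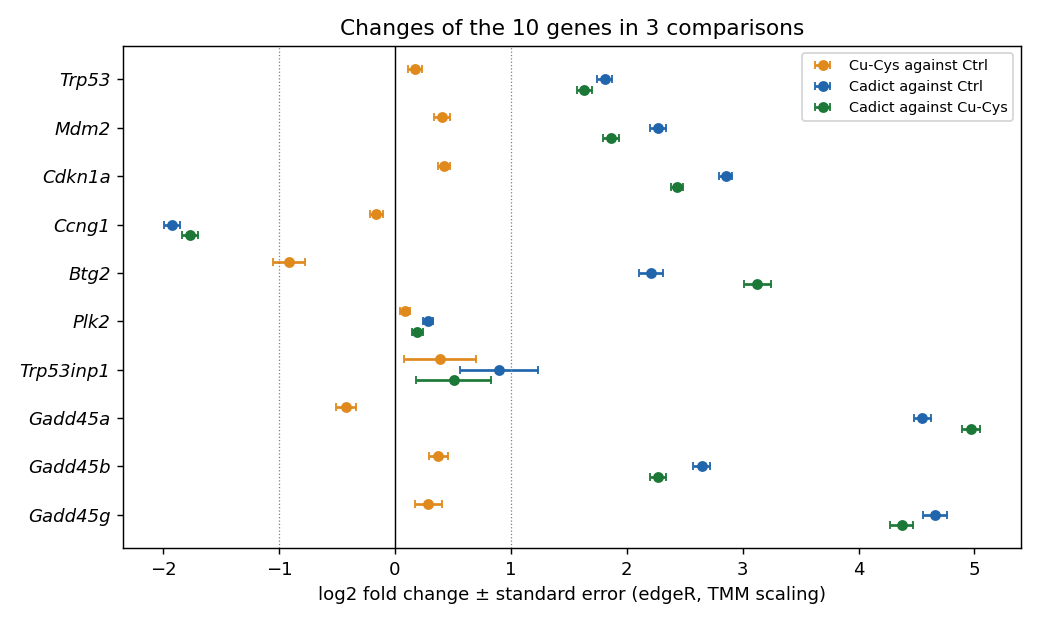
Log2 fold change of the 10 genes in the comparisons of Cu-Cys against Ctrl, Cadict against Ctrl and Cadict against Cu-Cys (points), with the standard error (bars) from edgeR with TMM scaling; dotted lines mark a 2-fold change. All Cu-Cys points lie inside the dotted lines, with Btg2 lowest at -0.92, while 8 genes pass them with Cadict.

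Levels of different genes were compared in TPM, which corrects for transcript length. In Ctrl cells Trp53 was the most abundant of the 10 at 258 ± 14.9 TPM (SD, n = 3), followed by Plk2 at 207 ± 1.96 TPM and Cdkn1a at 79.4 ± 1.37 TPM. Gadd45a, Ccng1 and Gadd45g came next at 41.1, 39.8 and 35.2 TPM, and neighbours among these overlapped. Gadd45b and Mdm2 also overlapped, at 26.6 and 24.6 TPM. Btg2 at 3.93 TPM and Trp53inp1 at 0.25 TPM closed the order, each separate from the gene above it.

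Under Cu-Cys Trp53, Plk2 and Cdkn1a again led in that order. Gadd45g stood at rank 4, with 38.8 ± 1.70 TPM (SD, n = 3), while Gadd45a had moved to rank 8, with 27.7 ± 2.63 TPM. Ccng1, Gadd45b, Mdm2 and Gadd45a overlapped from each to the next.

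Under Cadict, Gadd45a led at 386 ± 13.4 TPM (SD, n = 3), followed by Trp53 at 366 ± 34.9 TPM and Gadd45g at 354 ± 10.96 TPM, each overlapping the gene above it. Cdkn1a, separate from these, stood at 232 ± 24.6 TPM, and Plk2 came down to 103 ± 12.7 TPM. Ccng1 stood at rank 5 in Ctrl and at rank 9 with Cadict, at 4.27 ± 0.52 TPM, below Btg2 at 7.40 ± 0.70 TPM.

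The summed level of the GADD45 family was 98.1 to 109 TPM in Ctrl, 93.5 to 100.3 TPM with Cu-Cys and 791 to 829 TPM with Cadict. The Ctrl and Cu-Cys sums overlapped. Within the family, Gadd45b supplied 25.9% ± 2.92 (SD, n = 3) of the TPM in Ctrl, 32.0% ± 1.08 with Cu-Cys and 8.32% ± 0.70 with Cadict. Gadd45a went from 40.0% ± 1.47 in Ctrl to 28.3% ± 1.79 with Cu-Cys and 47.8% ± 0.83 with Cadict. For both genes the 3 groups of shares did not overlap. These shares are independent of the scaling between libraries, since all 3 genes are read within 1 library.

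**Figure D3:**
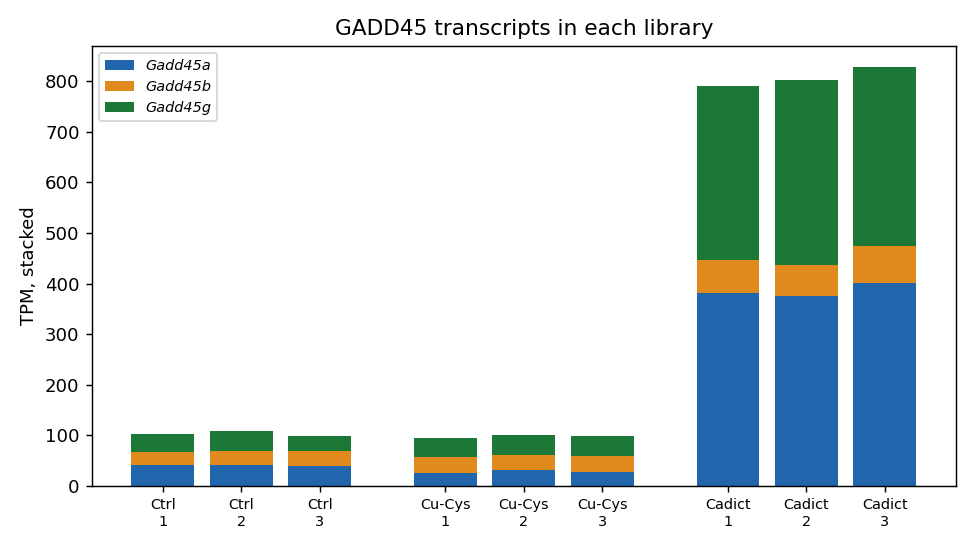
TPM of Gadd45a, Gadd45b and Gadd45g stacked for each of the 9 libraries (vertical axis linear from 0). The stacks reach 98.1 to 109 TPM in Ctrl, 93.5 to 100.3 TPM with Cu-Cys and 791 to 829 TPM with Cadict, where Gadd45a and Gadd45g make up nearly all of the height.

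The 2 treatments share copper and cystine, and metallothionein Mt1, a copper-responsive gene, was higher than in Ctrl with both, by log2 1.64 with Cu-Cys and 4.11 with Cadict. With Cu-Cys none of the 10 genes was called at the study's threshold, which edgeR passed for only 0.167% of all genes higher and 1.47% lower. With no fold limit and an adjusted p no larger than 0.05, 4 of the 10 were higher and 3 lower, against 22.6% and 22.4% of all genes. At an unadjusted p under 0.05 there were 8, against 52.5% of all genes, and DESeq2 also called 0 at the study's threshold. Their median change was 0.23 on the log2 scale, beside 0.01 for all genes tested.

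The 4 that were higher with Cu-Cys were Cdkn1a, at log2 0.42 ± 0.052 (SE; edgeR adjusted p = 1.5e-05), Mdm2 at 0.41 ± 0.072 (adjusted p = 0.00037), Gadd45b at 0.38 ± 0.080 (adjusted p = 0.0014) and Trp53 at 0.17 ± 0.063 (adjusted p = 0.035). Each was also called higher with Cadict. On the log2(TPM + 1) scale Cdkn1a alone of these 4 passed (0.27, limma adjusted p = 0.017), with Mdm2 at 0.25 (adjusted p = 0.069), Gadd45b at 0.23 (adjusted p = 0.057) and Trp53 at 0.023 (adjusted p = 0.86). Ccng1 was lower, at -0.16 ± 0.056 (edgeR adjusted p = 0.031), and was called lower with Cadict. Btg2 at -0.92 ± 0.14 (edgeR adjusted p = 0.00011) and Gadd45a at -0.42 ± 0.084 (adjusted p = 0.00099) were lower with Cu-Cys and called higher with Cadict. Gadd45g at 0.29 ± 0.12 (edgeR adjusted p = 0.056), Plk2 at 0.09 ± 0.045 (adjusted p = 0.12) and Trp53inp1 at 0.39 ± 0.31 (adjusted p = 0.33) did not pass. Both comparisons use the same 3 Ctrl libraries. Without Ctrl replicate 1, which had the lowest Btg2 of its group, Btg2 was at -1.04 and called lower.

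Cadict was also compared directly with Cu-Cys, in the same fit of all 9 libraries, so that Ctrl libraries enter only through the filter, the scaling and the estimate of spread. Again 7 of the 10 genes were called higher and 1 lower, against 18.6% and 23.6% of all genes tested. The median of the 10 was 2.07, and that of all genes was -0.10. Gadd45a differed by log2 4.97 ± 0.077 (SE), or 31.3-fold, Gadd45g by 4.37 ± 0.10 and Btg2 by 3.13 ± 0.12, or 8.73-fold (edgeR adjusted p = 9.8e-17, 5.4e-15 and 1.0e-12). For Btg2 and Gadd45a this exceeded the difference from Ctrl, since Cu-Cys lay below Ctrl. Cdkn1a differed by 2.43, Gadd45b by 2.27, Mdm2 by 1.86 and Trp53 by 1.64, and Ccng1 by -1.76. Plk2 at 0.20 (edgeR adjusted p = 0.00089) and Trp53inp1 at 0.51 (adjusted p = 0.15) were not called.

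Because the Cadict libraries differ in composition, the size of each change depends on the scale. The median of all genes in Cadict against Ctrl shifted from the TMM value by -0.95 with library totals, 0.12 with DESeq2 size factors, -1 on log2(TPM + 1) and -0.65 on log2(FPKM + 1). The share of higher genes among all those called was 43.32% with TMM, 48.29% with DESeq2 size factors, 11.87% with library totals, 5.667% on TPM and 11.01% on FPKM. In Cadict against Cu-Cys the corresponding shares were 44.14%, 48.89%, 10.76%, 5.843% and 9.495%. The 3 GADD45 genes and Cdkn1a were called higher, and Ccng1 lower, on all 5 scales. Trp53 was called with TMM and DESeq2 size factors, and was 0.86 with library totals, 0.84 on FPKM and 0.50 on TPM. Mdm2 missed the fold limit on TPM alone, at 0.95, and Btg2 on TPM at 0.77 and FPKM at 0.98.

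Changes were also taken relative to the median of all genes on the same scale. TMM, DESeq2 size factors and library totals differ by a near-constant shift, so their centred values are nearly equal by construction. Trp53 stood 1.62 to 1.94 log2 units above that median over the 5 scales, Mdm2 2.05 to 2.40, Cdkn1a 2.65 to 2.98, and Gadd45g 4.40 to 4.79. Plk2, whose sign turned, stood 0.11 to 0.42 above it. Ccng1 stood 1.77 to 1.83 below it.

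**Figure D4:**
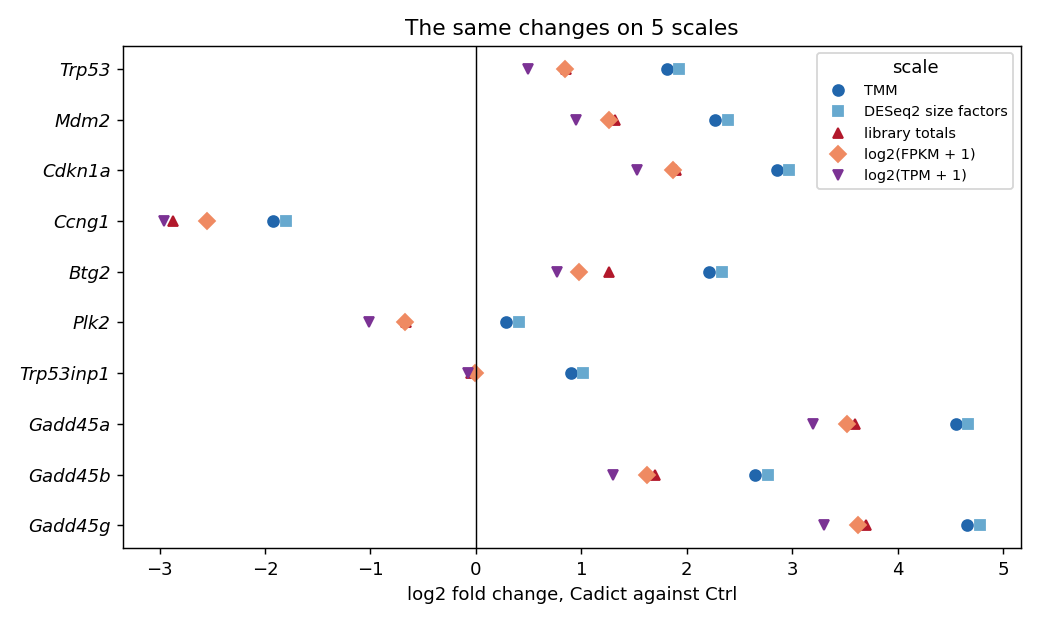
Log2 fold change of the 10 genes in Cadict against Ctrl on 5 scales (symbols): TMM, DESeq2 size factors, library totals, log2(FPKM + 1) and log2(TPM + 1). All genes shift left on the last 3 scales; Plk2 and Trp53inp1 cross 0, the GADD45 genes and Cdkn1a stay above 1, and Ccng1 stays below -1.

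The genes nearest to Trp53 in pattern over the 9 libraries, by root mean square distance of log2 CPM centred on Ctrl among 8550 candidates, were Sf1 (distance 0.049), Tfe3 (0.057) and Bcat1 (0.061). Those nearest to Cdkn1a were Cnppd1 (0.056), Ahsa2 (0.069) and Nedd4l (0.073).

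Beyond the 10 genes, 8 lists around p53 held 97 genes, of which 94 were in the table and 90 were tested. With Cadict 17 were called higher and 34 lower, beside 20.7% and 27.1% of all genes. With Cu-Cys 0 and 1 were called, beside 0.167% and 1.47%, the lower one being Fas, a death receptor, named here after its value was seen (log2 -1.07, edgeR adjusted p = 3.0e-06). The share called higher is thus close to that of all genes, and the share called lower is above it. Counts in the single lists below rest on 9 to 17 genes each. Some genes, among them Plk1, Ccna2, Ccnb1 and Cdk1, stand in more than 1 list and are counted in each. Genes said there to have risen or fallen in number are those called with Cadict, to be read beside the same 20.7% and 27.1%. The median of the 90 with Cadict was -0.28, against -0.13 for all genes. List medians with Cadict ran from -1.22 for cell cycle genes repressed through DREAM, -0.86 for repair targets, -0.67 for GADD45 partners and -0.56 for apoptosis targets to -0.22 for p21-bound cyclins and kinases, -0.04 for relatives, 0.21 for p53 regulators and 1.01 for metabolism targets.

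Among p53 regulators and modifiers, 2 of 14 tested genes were called higher with Cadict and 4 lower, shares close to those of all genes. With no fold limit and an adjusted p no larger than 0.05 the balance was the other way, with 7 higher and 5 lower. Of all genes, 40.6% were higher and 47.1% lower at that threshold. This balance was counted with TMM alone, and library totals shifted the median of all genes by -0.95. The ubiquitin ligase gene Rchy1 rose by log2 1.80 and the deacetylase gene Sirt1 by 1.05, though neither was called with library totals and Sirt1 was -0.23 on log2(TPM + 1). Trp53bp1, whose product gathers at DNA breaks, fell by 2.18, the phosphatase gene Ppm1d fell by 2.004 and the damage kinase gene Atr fell by 1.37. Ppm1d is itself a p53 target.

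Of the apoptosis and growth loss targets, 2 of 13 rose and 5 fell. Pmaip1, the gene of the BH3-only protein Noxa, went from 47.4 to 310 CPM (log2 2.71), and Bax, a pore former of mitochondria, from 26.0 to 111 CPM (2.09). In mean TPM Pmaip1 went from 43.5 to 115.5 and Bax from 103 to 173, which for Bax is short of 2-fold. Phlda3, an inhibitor of Akt signalling, was 44.8 CPM in Ctrl and 5.05 CPM with Cadict, and fell by 3.14. Zmat3, an RNA-binding protein gene, fell by 1.35. The others called lower were Fas at log2 -1.71, Bbc3 at -1.61 and Pidd1 at -1.03.

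Of the targets in arrest, DNA repair and nucleotide supply, 1 of 10 rose and 5 fell. The polymerase gene Polk rose by log2 1.21, a value that was -0.044 on log2(TPM + 1). Ckap2 fell by 2.09, the nucleotide excision repair gene Xpc fell by 2.04 and Gtse1 fell by 1.65. Of the targets in metabolism, redox control and secretion, 6 of 12 rose and 2 fell. The 2 that fell were Sesn1 at log2 -1.35 and Aldh4a1 at -1.22. The secreted stress cytokine gene Gdf15 went from 2.31 to 106 CPM (log2 5.51), the sestrin gene Sesn2 from 10.7 to 113 CPM (3.39), and the receptor kinase gene Epha2 from 224 to 1578 CPM (2.81).

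Family relatives of the 10 genes split, with 4 of 10 tested genes higher and 4 lower. Plk3 rose by log2 4.12, while its relative Plk1, the mitotic kinase gene, fell by 3.74. The Btg2 relatives Btg3 and Btg1 rose by 2.85 and 2.39. Cdkn1b, which encodes the p21 relative p27, fell by 2.39, opposite to Cdkn1a, and Trp53inp2 fell by 1.72.

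Among GADD45 partners, 1 of 11 rose and 5 fell. Map2k3, a kinase upstream of p38, rose by log2 1.78, and was 0.83 and not called with library totals. Map3k4, the kinase that GADD45 proteins bind and activate, fell by 2.51, from 59.1 to 10.4 CPM. The partners Ccnb1 and Cdk1 fell by 2.49 and 1.76. Pcna, the DNA replication clamp, was 469 CPM in Ctrl and 758 CPM with Cadict, at log2 0.69 (edgeR adjusted p = 1.6e-08), short of the fold limit. Its direction depended on the scale, since its mean in TPM was lower with Cadict, at 698.5 against 1078 in Ctrl.

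Of the cyclins and kinases that p21 binds, 1 of 9 rose and 4 fell. Cdk4 rose by log2 1.59, and was 0.64 and not called with library totals. Ccnd1, the cyclin D1 gene, went from 1057 to 112 CPM and fell by 3.24, and the cyclin E genes Ccne2 and Ccne1 fell by 3.77 and 2.86. Of 17 cell cycle genes known to be repressed through p53, p21 and the DREAM complex, 0 rose and 10 fell, against 20.7% and 27.1% of all genes. Plk1, Ccna2 and Ccnb1 were the lowest, at -3.74, -2.85 and -2.49. With no fold limit and an adjusted p no larger than 0.05, 2 of the 17 were higher and 15 lower, against 40.6% and 47.1% of all genes.

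**Figure D5:**
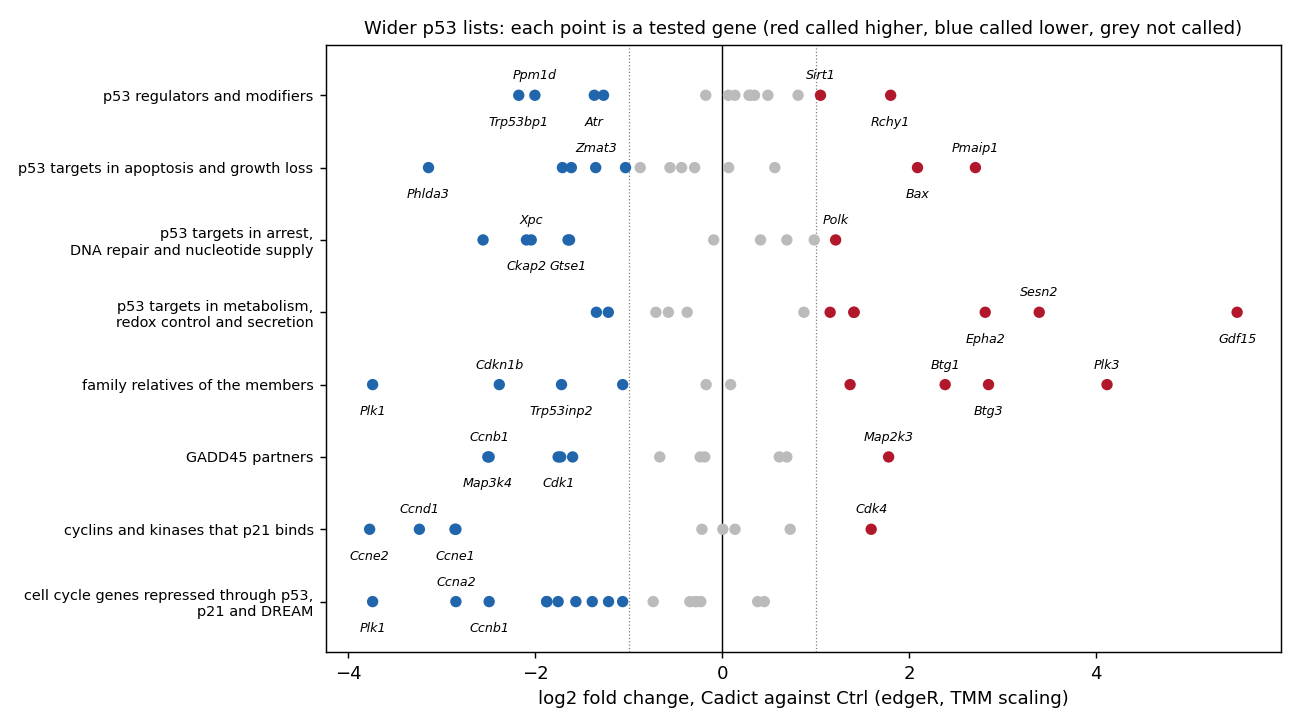
Log2 fold change in Cadict against Ctrl (horizontal axis, edgeR with TMM scaling) for every tested gene of the 8 lists (rows). Red points were called higher, blue points lower and grey points not called; dotted lines mark a 2-fold change, and labels name up to 3 rises and 3 falls per list among genes averaging at least 10 CPM. The bottom row, genes repressed through p53, p21 and DREAM, has 10 blue points and 0 red ones. Of all genes tested, 27.1% were called lower and 20.7% higher.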

How the data were processed

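Polyadenylated RNA of MC38 cells was sequenced from DNA nanoballs after a column extraction, per the labels; the study's methods name TRIzol and an Illumina instrument. The submitters' processing notes list HISAT2 2.1.0, Bowtie2 2.3.4.3 and RSEM 1.3.1. The authors deposited, per gene and library, an expected count without normalization, a TPM, an FPKM, and a signal, the count divided by a size factor, which was not used further. The authors' averages per group were not used. Columns CC and CCGE were read as Cu-Cys and Cadict, the latter inferred from its components.

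Expected counts were rounded and tested in R 4.3.3 with edgeR 4.0.16 (quasi-likelihood, TMM, filterByExpr by group, 1 fit of 3 groups without a replicate block, Benjamini-Hochberg adjustment over 11949 genes). Genes were called at the study's threshold of a 2-fold change with an adjusted p no larger than 0.001. The sources do not say that replicates came from separate cultures, so p-values measure the spread between libraries. Alternatives used DESeq2 1.42.0, limma 3.58.1, other scalings and filters, and left out each library in turn. The procedure was tested on simulated data. Named genes were the 10 genes, the 3 nearest in pattern to Trp53 and Cdkn1a, and up to 3 rises and 3 falls of each list. The rises and falls were taken among called genes averaging 10 CPM or more. Genes outside this rule are Mt1, Fas, Pcna, Bbc3, Pidd1, Sesn1, Aldh4a1, Krt19, Cdh1 and the mesenchymal and fibroblast markers. The genes and lists were chosen with earlier results of these data known. Promoters came from RefSeq on GRCm38.p6 and shared stretches from GENCODE M21; the submitters' notes name GRCm39 among the builds, so no coordinate was carried between builds.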

Additional observations from a re-analysis of the deposited data

How the results depend on the processing

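Under the scalings, filters, DESeq2 and single-library omissions tried, the counts of the 10 genes called in Cadict against Ctrl stayed at 7 and 1 when any library was left out, and went to 6 and 1 with library totals, 5 and 1 on log2(FPKM + 1), and 4 and 2 in limma on log2(TPM + 1) and log2(TPM + 0.1), where Plk2 joined Ccng1. Of the 11949 genes tested, 828 were called higher and 6148 lower with library totals, and 613 and 4956 on log2(FPKM + 1). On log2(TPM + 1) those counts were 389 and 6475, and on log2(TPM + 0.1) 502 and 7202, beside 2472 and 3235 with TMM. With Cu-Cys, Btg2 was the 1 gene of the 10 called lower on log2(TPM + 0.1) and without Ctrl replicate 1, so that leaving out single libraries gave 0 to 1. Of all genes, 184 of 11949 were called lower on log2(TPM + 0.1) and 128 of 12061 without Ctrl replicate 1. With no fold limit and an adjusted p no larger than 0.05, 4 of the 10 genes were higher and 3 lower. Of those, the higher count was 1 on both TPM scales, and 3 to 6 when single libraries were left out, with 6 without Cadict replicate 2. Plk2 was reversed with library totals, log2(TPM + 1), log2(TPM + 0.1) and log2(FPKM + 1), at -0.67, -1.01, -1.02 and -0.67 against Ctrl and -0.69, -0.96, -0.97 and -0.69 against Cu-Cys. With Cu-Cys it was -0.053 on both TPM scales. Trp53inp1 was reversed on the same 4 scales, at -0.049, -0.073, -0.27 and -0.0040 against Ctrl and -0.37, -0.13, -0.46 and -0.054 against Cu-Cys. Sirt1 was -0.23 and -0.24 and Polk -0.044 and -0.048 on the TPM scales. The cause was not tested, though each of these scales also shifts the median of all genes. With library totals the lists on p53 regulators, p21-bound cyclins, GADD45 partners and DNA repair had 0 genes called higher. On that scale only 828 of all 11949 genes were called higher, so a count of 0 in such short lists says little about them. Trp53inp1 gave no value under the filter of 10 counts per library. Replicate numbers correlated between groups at -0.19 to 0.16 and 6 of 18 matches were best with their own number, so they share only a number. With a replicate block the calls stayed at 7 and 1 for both Cadict comparisons and 0 for Cu-Cys, and 5 in place of 4 were higher with Cu-Cys at an adjusted p no larger than 0.05.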
